A study of Mus musculus with 4 samples.

Results

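Il1a, Il1b, Il6, Tnf, Ccl2, Cxcl1, Cxcl2, Igfbp3 and Mmp3 are 9 genes whose products belong to the senescence-associated secretory phenotype (SASP), the mix of cytokines, chemokines, growth factor binding proteins and proteases that senescent cells release. They were taken by symbol, as 9 of the 32285 genes counted in single-nucleus RNA-seq of mouse lung. Lung nuclei of 2 WT and 2 VEcad-TRF2DN-Tg (Tg) animals were profiled, all of the C57/BL6J strain and 8 to 9 weeks old per the labels, and, per the study's methods, males exposed to 10% oxygen for 3 weeks, so that both genotypes share the hypoxia. Each mouse gave 1 library, and p-values measure the spread between these 2 mice a genotype. The Tg mice overexpress a dominant-negative TRF2, the telomere-capping protein whose loss of function uncaps chromosome ends, under the vascular endothelial cadherin promoter, which drives it in endothelial cells (ECs), and were bred as heterozygotes. The question put to the 9 genes was in which cells of the lung their transcripts lay, and whether they differed between genotypes in ECs, in other cells or in the lung RNA as a whole.

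Interleukin-1α, interleukin-1β, tumour necrosis factor and interleukin-6 are cytokines that activate NF-κB or STAT3 in the cells they reach, and interleukin-1 signalling in turn drives transcription of Il6 and of chemokine genes. Ccl2 encodes the chemokine that recruits monocytes through Ccr2, and Cxcl1 and Cxcl2 encode neutrophil chemoattractants that act on Cxcr2. Igfbp3 encodes a carrier protein of the insulin-like growth factors, and Mmp3 encodes stromelysin 1, a matrix protease made mainly by fibroblasts. In the lung, macrophages, neutrophils and activated stromal cells are well-known sources of these factors.

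Each library held between 125261739 and 182014706 unique molecular identifiers (UMIs, 1 per captured transcript), and 25269 to 44000 barcodes had at least 1500 UMIs. Free RNA floats in the nuclei suspension and enters every droplet. Of these barcodes, 62.9 to 86.9% did not reach the limits set for the excess of a marker list over it and were left in no class, against 5.14 to 71.7% when classes were drawn from the whole profile. The 3357 and 4595 nuclei of WT and the 8487 and 9186 nuclei of Tg that reached them were placed in classes by their markers. Barcodes with 300 to 800 UMIs served as empty droplets and hold the free RNA of each mouse, in 2732 to 18387 barcodes per library. Libraries shared 0.697 to 1.3% of their barcodes of at least 1500 UMIs. There were 13 classes with at least 20 nuclei in every mouse. EC nuclei numbered 596 and 500 in WT and 1352 and 1547 in Tg, and their list of 15 EC markers stood 7.05 to 7.89 times above the empty droplets. Alveolar macrophage nuclei numbered 182 and 340 in WT and 781 and 549 in Tg. Their list of 11 markers stood 3.94 and 1.83 times above the empty droplets in WT and 2.02 and 1.34 times in Tg. Of the 11 markers, 10 and 8 were above the empty droplets in WT and 8 and 5 in Tg. Chil3 of that list was itself at 2662 and 5333 CPM (UMIs of a gene scaled to the total UMIs of the library or class) in the empty droplets of WT and 3044 and 6923 in those of Tg. Pparg led the class. Ear2 of the same list lay below the empty droplets in every mouse. Its level was 25.4 and 109 CPM in WT and 210 and 214 in Tg, against 36.9, 196.5, 297 and 373.5 in the empty droplets. Of the macrophage nuclei, 66 and 118 in WT and 372 and 292 in Tg lay near the limit for a class. The transgene is not counted as a gene of its own. Mouse Terf2 stood at 54.9 and 47.4 CPM in EC nuclei of WT and at 46.7 and 49.6 CPM in those of Tg.

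Most members are short genes, and pairs of them are neighbours. In the GENCODE vM21 annotation of GRCm38 (mm10), Il1a lies at chr2:129299610-129309972 and Il1b at chr2:129364570-129371139, both on the minus strand and 54.6 kb apart. Cxcl1 (chr5:90891241-90893115) and Cxcl2 (chr5:90903871-90905938) lie 10.8 kb apart on the plus strand, and Il6 lies on the same chromosome at chr5:30013114-30019981, plus strand. Tnf is at chr17:35199381-35202007 on the minus strand, Ccl2 at chr11:82035571-82037453 on the plus strand, Igfbp3 at chr11:7206086-7213923 on the minus strand and Mmp3 at chr9:7445822-7455975 on the plus strand. All 9 are protein coding, with 3 exons in Ccl2 and up to 10 in Mmp3. Gene bodies run from 1.9 kb in Ccl2 and Cxcl1 to 10.4 kb in Il1a, and UMIs on introns were counted, so levels of different members are not compared with each other below.

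The sequences just before the start of the neighbouring genes Cxcl1 and Cxcl2 and of Il6 are shown because NF-κB is a known regulator of these genes, and because Cxcl1 and Il6 were, after Ccl2, the members with the largest fitted differences between genotypes in the lung RNA. The letters are from the RefSeq promoter table (GRCm38.p6), 5′ to 3′ on the plus strand, and capitals mark matches on either strand to the κB pattern, the site NF-κB dimers bind, searched in a degenerate form that leaves some of its middle letters open.
Cxcl1, chr5:90891125-90891240: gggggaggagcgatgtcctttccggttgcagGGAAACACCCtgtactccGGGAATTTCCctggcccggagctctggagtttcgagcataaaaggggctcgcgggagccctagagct
Cxcl2, chr5:90903779-90903870: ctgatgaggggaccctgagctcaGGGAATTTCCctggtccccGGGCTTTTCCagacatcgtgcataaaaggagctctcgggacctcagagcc
Il6, chr5:30012994-30013113: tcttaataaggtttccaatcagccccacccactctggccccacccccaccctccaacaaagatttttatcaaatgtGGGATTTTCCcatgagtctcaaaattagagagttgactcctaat
Cxcl1 and Cxcl2 share the run GGGAATTTCC and each hold a second match. The κB pattern was found in the 250 bases before the start in 3 of the 8 members with an entry in the table, against 4.11% of 32851 promoters, and the AP-1 pattern TGANTCA in 3 of the 8 (Il1a, Il6 and Mmp3), against 6.75%. Ccl2 has no entry. A match is a description of the letters and no measure of binding.

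Il1a was the 1 member that passed the test above the free RNA in a class of nuclei. In alveolar macrophage nuclei it was at 51.9 and 39.5 CPM in WT and 18.4 and 19.8 CPM in Tg, from 51, 105, 46 and 50 UMIs, while the empty droplets of the same mice held 13.3, 9.38, 4.21 and 7.70 CPM. The macrophages thus stood 3.90, 4.22, 4.38 and 2.57 times above the free RNA, in 4 of 4 mice. Against the empty droplets, with the mouse as a block, the log2 difference of Il1a was 1.99 ± 0.19 (SE; edgeR quasi-likelihood test, Benjamini-Hochberg adjusted p = 2.55e-06). In this class 29.8% of all 12915 genes tested passed above the empty droplets. Of the 676 UMIs of Il1a in the 13 classes, 252 (37.3%) lay in alveolar macrophages, whose mean over the 4 mice was 32.4 ± 16.2 CPM (SD, n = 4). Pericytes came next in mean level, at 11.2 ± 10.6 from 9 UMIs, and monocytes or interstitial macrophages after them, at 9.04 ± 4.12 from 9 UMIs. These neighbours do not differ beyond their spread, and the other 10 classes lay lower still, down to 0.453 in dendritic cell nuclei, which held 1 UMI. In EC nuclei Il1a was at 6.05 and 9.14 in WT and 2.81 and 5.07 in Tg, at 0.454 to 0.974 times the free RNA, and was lower in 4 of 4 mice without passing the test (log2 -0.56 ± 0.25, adjusted p = 0.078).

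Il1b, made as an inactive precursor and released after cleavage by caspase-1, had a less even distribution. Its level in alveolar macrophage nuclei was 45.8 and 15.1 CPM in WT and 3.21 and 7.91 in Tg, against 9.36, 11.2, 4.44 and 7.18 in the empty droplets. Only WT replicate 1 was clearly above its free RNA, by 4.89 times, and the other 3 mice lay between 0.722 and 1.35 times. The test over the 4 mice gave a log2 difference of 0.85 ± 0.37 (adjusted p = 0.0549). It passed with nuclei of at least 3000 UMIs (adjusted p = 0.0459), with classes from the whole profile (0.0113) and without Tg replicate 1 (0.00352). Single nuclei with at least 3 UMIs of Il1b were rare. They numbered 14, 18, 7 and 10 among the barcodes of at least 1500 UMIs in the order WT replicates 1 and 2 and Tg replicates 1 and 2, and of these 7, 12, 6 and 7 were in no class. In WT replicate 1, 6 of the 14 were alveolar macrophages. Neutrophils, a known source of interleukin-1β, could not be tested, with 1, 4, 4 and 9 nuclei in the 4 mice. Their 18 nuclei are described only: Il1b had 0, 1, 6 and 1 UMIs in them, and the 6 UMIs of Tg replicate 1 came from 2 nuclei. Both interleukin-1 genes were found in the same macrophage nucleus 7, 11, 0 and 2 times, among 40, 76, 44 and 45 macrophages with an Il1a UMI and 28, 29, 8 and 19 with an Il1b UMI.

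**Figure D1:**
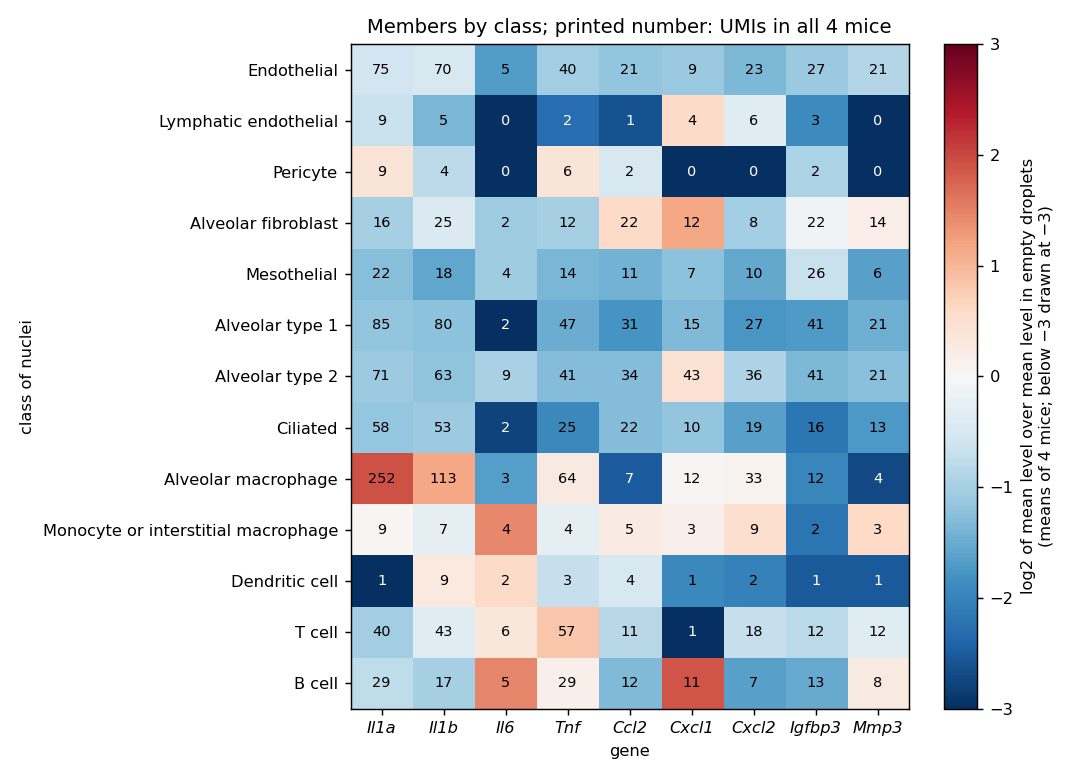
Levels of the 9 members (columns) in the 13 classes with at least 20 nuclei in every mouse (rows), coloured by the log2 ratio of the mean level over 4 mice to the mean level in the empty droplets, with the UMIs in all 4 mice printed in each field. Il1a in alveolar macrophages holds 252 UMIs and has the highest ratio (3.75), next to Cxcl1 in B cells (3.72) on 11 UMIs, while most fields in the endothelial and epithelial rows are below the free RNA.

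Tnf is a cytokine of macrophages and T cells. It was highest on average in T cell nuclei, at 7.31 and 11.4 CPM in WT and 13.5 and 6.63 in Tg, from 57 UMIs. All 4 mice lay above their free RNA there, by 1.27 to 3.33 times, and the test missed the threshold (log2 0.73 ± 0.34, adjusted p = 0.0922). In alveolar macrophages Tnf was at 2.04 and 5.27 in WT and at 12.4 and 6.72 in Tg, against 5.76, 6.86, 4.05 and 5.13 in the empty droplets, so that both Tg mice lay above and both WT mice below the free RNA. The macrophages' difference from the free RNA over the 4 mice was 0.42 ± 0.37 on the log2 scale (adjusted p = 0.319), and its difference between genotypes was 1.69 ± 0.60 (adjusted p = 0.0873).

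Il6, the cytokine that signals through Il6st and STAT3, was too sparse to place. It had 104 and 118 UMIs in the whole WT libraries and 22 and 60 in the Tg libraries, and 44 in all 13 classes together, and was tested in none of the classes. In EC nuclei it had 1, 0, 0 and 4 UMIs. The 0 of 500 EC nuclei in WT replicate 2 allows a share with a UMI of up to 0.6%, and the 0 of 1352 in Tg replicate 1 up to 0.222%, where a limit is the share that 3 counts would give.

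Ccl2 and Cxcl1 had an excess in fibroblasts of 1 mouse only. In alveolar fibroblast nuclei Ccl2 was at 24.4 CPM in WT replicate 1, from 18 UMIs in 7 nuclei, and at 1.73, 0.893 and 0.83 in WT replicate 2 and Tg replicates 1 and 2, from 2, 1 and 1 UMIs. Cxcl1 followed the same order there, with 10 UMIs in 3 nuclei of WT replicate 1 (13.6 CPM) and 2, 0 and 0 UMIs in the others. The same mouse alone held Ccl2 and Cxcl1 in adventitial fibroblasts, with 4 and 3 UMIs in 16 nuclei, a class too small for a test. Both genes passed the filter on low counts in few classes. Ccl2 was tested in 5 classes and was below the empty droplets in 4 of them, while Cxcl1 was tested in alveolar type 2 nuclei only, where it stood at 1.38, 1.72, 1.69 and 0.615 times the free RNA (log2 0.67 ± 0.35, adjusted p = 0.107). Cxcl2 was at 5.09 and 5.65 CPM in alveolar macrophages of WT and at 2.41 and 2.77 in those of Tg, 0.891 to 1.19 times the free RNA, and below the free RNA with an adjusted p under 0.05 in 4 of the 5 classes in which it was tested.

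Igfbp3 was set by 1 library. WT replicate 2 held 1367 of its UMIs against 85, 258 and 346 in WT replicate 1 and Tg replicates 1 and 2, and the empty droplets of that mouse held 12.3 CPM against 1.26, 2.38 and 4.62. Of the UMIs of WT replicate 2, 129 (9.44%) lay in nuclei placed in a class and 780 (57.1%) in barcodes of at least 1500 UMIs without one. In alveolar fibroblasts Igfbp3 reached 9.82 CPM in Tg replicate 1, from 11 UMIs in 10 nuclei and 4.12 times its free RNA. The gene was tested in 4 classes and was below the empty droplets in all 4. Mmp3 had too few UMIs for a test in any of the 13 classes. With classes drawn from the whole profile it passed above the empty droplets in alveolar fibroblasts (log2 1.23, edgeR adjusted p = 0.047). It had 0, 2, 5 and 3 UMIs in the 16, 12, 34 and 18 adventitial fibroblasts of WT replicates 1 and 2 and Tg replicates 1 and 2, which is 0, 17.5, 44.5 and 55.3 CPM against 1.62, 1.82, 4.37 and 2.57 in the empty droplets, so 3 of 4 mice were above their free RNA, on 10 UMIs in all.

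Over all members and classes, 43 of the 117 pairs of a member and a class had enough UMIs to be tested against the empty droplets, in 11 classes. Il1a in alveolar macrophages was the 1 pair above them, 26 pairs were below and 16 passed in neither direction. Over the same classes, 23.4% of all tests of a gene in a class were above and 31.2% below. In EC nuclei of the 4 mice together, none of the 6 members tested was above the free RNA. Tnf, Ccl2, Cxcl2 and Igfbp3 were below it in ECs, by 0.95 ± 0.30, 1.22 ± 0.36, 1.25 ± 0.37 and 1.28 ± 0.38 on the log2 scale (adjusted p = 0.0172, 0.0131, 0.0127 and 0.0121), where 30.1% of all genes were below. Il1a and Il1b were tested there and passed in neither direction. These 6 members rested on 21 UMIs for Ccl2 up to 75 for Il1a over the EC nuclei of the 4 mice. Club cell markers, a measure of free RNA, were at 8542, 7484, 43290 and 16150 CPM in the same nuclei. In alveolar type 1 and ciliated nuclei, every one of the 6 members tested was below the empty droplets, and in alveolar type 2 nuclei 6 of the 7 tested were, where 36.1, 33.8 and 37.7% of all genes were below in the 3 classes. The alveolar type 2 markers summed to 2.12 and 1.66 times the empty droplets in their own class in WT and to 0.949 and 0.928 times in Tg, with 8 of 10 above in each mouse.

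**Figure D2:**
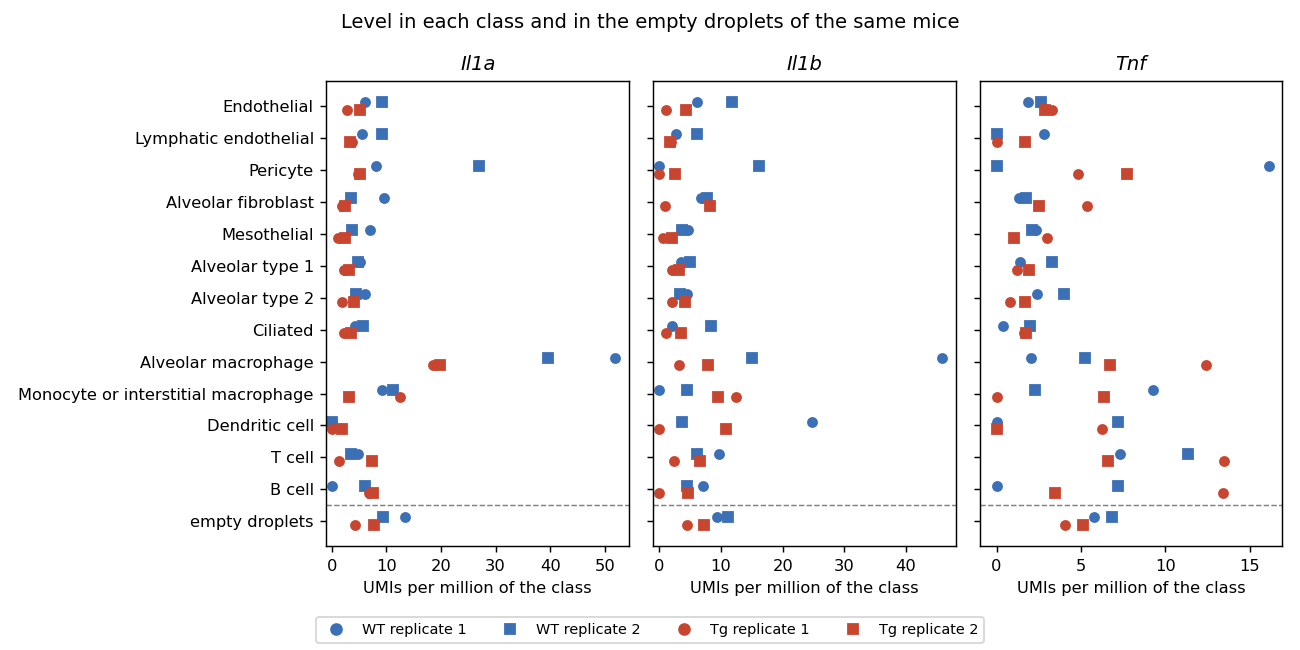
CPM of Il1a, Il1b and Tnf (horizontal axes) in each class of nuclei and in the empty droplets (below the dashed line), with 1 point per mouse. Il1a in alveolar macrophages of all 4 mice, at 18.4 to 51.9, lies to the right of its empty droplets at 4.21 to 13.3, and Il1b does so clearly in WT replicate 1 only.

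The share of nuclei with an Il1a UMI gave the same picture per nucleus. Among alveolar macrophages it was 22.0% (exact 95% binomial interval 16.2 to 28.7) and 22.4% (18.0 to 27.2) in WT, against 5.63% (4.12 to 7.49) and 8.2% (6.04 to 10.8) in Tg. The macrophage nuclei of the WT mice were also deeper, with medians of 4911 and 7144.5 UMIs against 2932 and 4211. With every nucleus thinned to 1500 UMIs the shares were 4.95 and 5.29% in WT and 3.07 and 2.37% in Tg, and the genotypes still did not overlap. The thinned shares rest on a single random draw and on few nuclei, and are given without intervals. Alveolar type 1 nuclei, where Il1a was below the free RNA in 4 of 4 mice, had 2.53, 2.66, 0.81 and 1.40% of nuclei with a UMI, and 0.985, 0.949, 0.374 and 0.191% after thinning. Whether their Il1a UMIs were free RNA only was not tested. EC nuclei had 2.01, 3.80, 0.740 and 1.94%, with median depths of 3009.5, 3763.5, 2417 and 3202 UMIs. Type 1 nuclei were deeper, with medians of 4364, 4544, 3274 and 3966 UMIs. After thinning, the mean EC share was 1.35% in WT and 0.365% in Tg. In CPM, Il1a was higher in ECs than in type 1 nuclei of each mouse, at 6.05, 9.14, 2.81 and 5.07 against 5.23, 4.70, 2.21 and 3.16. Both classes lay below the free RNA of each mouse. With 2 against 2 mice an exact two-sided permutation test cannot go below p = 0.33, the value found for Il1a in macrophages and in ECs. Intervals cover counting error only.

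**Figure D3:**
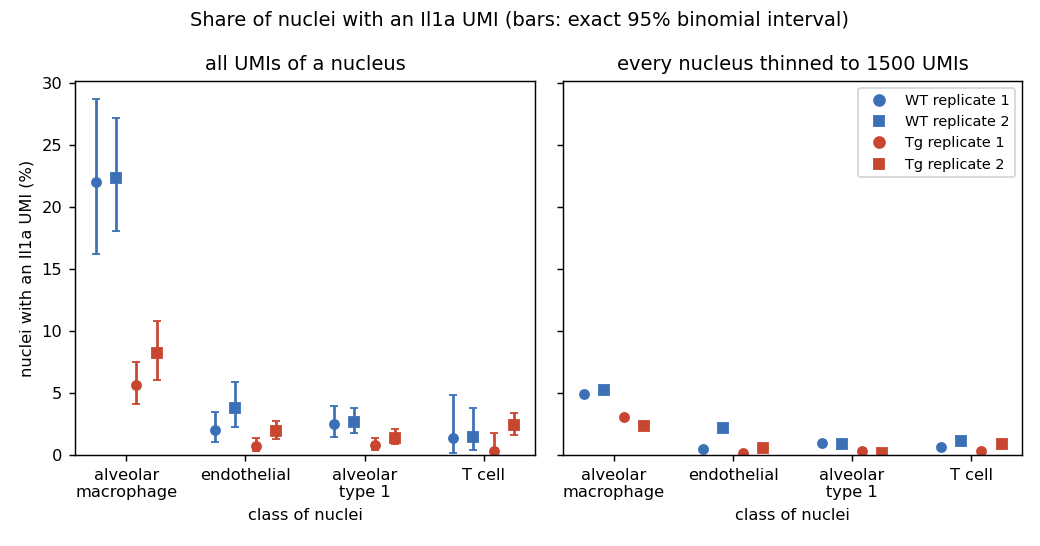
Share of nuclei with an Il1a UMI in 4 classes, in percent, with 1 point per mouse, from all UMIs of a nucleus (left, bars are exact 95% binomial intervals) and after thinning every nucleus to 1500 UMIs (right). The WT macrophages sit at 22.0 and 22.4% on the left and 4.95 and 5.29% on the right, above the Tg macrophages in both.

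In the lung RNA as a whole, counted over all barcodes of a mouse, Ccl2 and Cxcl1 were lower in the Tg mice. Ccl2 was at 5.75 and 6.13 CPM in WT and 1.15 and 0.978 in Tg, from 720, 895, 148 and 178 UMIs. Its log2 fold change, Tg over WT, was -2.50 ± 0.30 (edgeR, adjusted p = 0.0195). Cxcl1 was at 3.18 and 3.22 in WT and at 0.428 and 0.896 in Tg, with a log2 fold change of -2.30 ± 0.43 (adjusted p = 0.0343). These were 2 of the 9 members, where 9.35% of all 21795 genes tested passed. Both calls were lost without either Tg mouse: the adjusted p of Ccl2 was then 0.237 or 0.0909 and that of Cxcl1 0.271 or 0.0884, where edgeR called 0 genes in all. For both genes the WT mice lay within a narrow range and neither Tg mouse came near it.

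Il1a, Il1b and Il6 also had Tg values under every WT value, without passing edgeR's test. Il1a was at 12.7 and 10.3 CPM in WT and 3.96 and 6.96 in Tg (log2 -1.11 ± 0.32, adjusted p = 0.08). Il1b was at 11.1 and 10.9 in WT and 3.28 and 6.59 in Tg (log2 -1.20 ± 0.35, adjusted p = 0.0814). Il6 was at 0.830 and 0.808 in WT and 0.171 and 0.33 in Tg (log2 -1.73 ± 0.44, adjusted p = 0.0634). DESeq2 called these 3 as well as Ccl2 and Cxcl1, with adjusted p = 0.0142 for Il1a, 0.013 for Il1b and 0.0129 for Il6, where it called 20.5% of all genes.

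Tnf and Cxcl2 did not pass. Tnf was at 4.71 and 6.43 CPM in WT and 4.24 and 4.38 in Tg (log2 -0.39 ± 0.27, adjusted p = 0.345), and Cxcl2, whose genotypes overlapped, at 2.71 and 3.87 in WT and 2.23 and 2.76 in Tg (log2 -0.43 ± 0.32, adjusted p = 0.373). Igfbp3 was at 0.679 and 9.35 in WT and 2.01 and 1.90 in Tg, where the difference between the WT mice was larger than any between genotypes. Its log2 fold change of -1.37 ± 1.02 turned to 1.48 without WT replicate 2, and it was called in opposite directions with either WT mouse left out. Mmp3 was the 1 member with both Tg mice above both WT mice, at 3.08 and 1.54 against 1.43 and 1.25 (log2 0.77 ± 0.44, adjusted p = 0.264), where 36.7% of all genes had this order. Its log2 fold change ran from 0.157 to 1.21 over the alternative settings, leaving out each mouse among them. By their ranges, 6 members had both Tg mice below both WT mice, against 30.2% of all genes. The median log2 fold change was -1.20 over the 9 members and 0.01 over all genes tested.

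Whole-lung sums cannot tell fewer cells of a type from less RNA per cell, and the marker lists of several cell types separated the genotypes. Club cell markers summed to 15500 and 13020 CPM in WT and 73820 and 23870 in Tg, with 4 of 9 higher and 2 of 9 lower in both Tg mice. Alveolar type 2 markers summed to 4780 and 5817 against 13020 and 11010 (4 of 10 higher and 1 lower in both Tg mice), mesothelial markers to 232 and 428 against 827 and 860 (6 of 7 higher) and smooth muscle markers to 13.7 and 11.8 against 33.8 and 22.1 (8 of 8 higher). Dendritic cell markers summed to 140 and 133 against 66.3 and 124 (4 of 8 lower). The list for neutrophils summed to 65.6 and 78.7 in WT and 85.7 and 74.6 in Tg, that for monocytes or interstitial macrophages to 107 and 388 against 137 and 176, and those for alveolar and adventitial fibroblasts to 118 to 139 and 147 to 393 in WT and 134 to 177 and 385 to 404 in Tg, and no marker of these lists was at 0. Of the 9 neutrophil markers 4 were higher and 2 lower in both Tg mice. The part of these differences in the levels of Ccl2 and Cxcl1 was not tested. With the most abundant club and alveolar type 2 transcripts, hemoglobin and mitochondrial genes left out before scaling, a setting chosen after seeing the data, Ccl2 and Cxcl1 had log2 fold changes of -2.49 and -2.29 (adjusted p = 0.0179 and 0.0325).

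**Figure D4:**
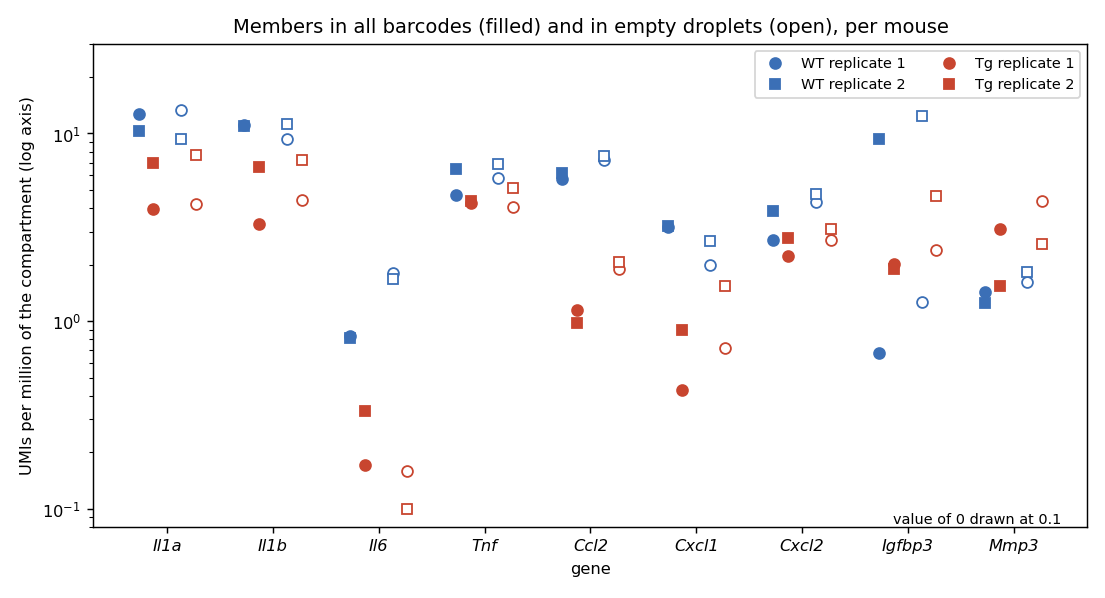
CPM of each member (log axis) in all barcodes (filled) and in the empty droplets (open) of each mouse, WT in blue and Tg in red, with a value of 0 drawn at 0.1. The WT and Tg mice are widely apart for Ccl2, at 5.75 and 6.13 against 1.15 and 0.978 in all barcodes, and the 2 WT mice are widely apart for Igfbp3.

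The empty droplets showed the same directions. Ccl2 was at 7.20 and 7.56 CPM there in WT and 1.91 and 2.05 in Tg (log2 -1.61 ± 0.41, adjusted p = 0.0345). Il6 had 10 and 12 UMIs in WT and 2 and 0 in Tg, 1.80, 1.68, 0.159 and 0 CPM, and passed the test (edgeR, adjusted p = 0.0339), though a fold that rests on a mouse at 0 depends on the model. Its WT mice alone reached the filter on low counts, so Il6 was tested because it was high in WT. The Il6 call is thus a description only. Cxcl1 was at 1.98 and 2.66 in WT and 0.714 and 1.54 in Tg (log2 -1.05 ± 0.57, adjusted p = 0.204). Cxcl1 and Il1a each passed in 1 of 9 alternative settings, over which their log2 fold changes ran from -1.85 to -0.498 and from -1.12 to -0.461. Of the 9 members, 7 had both Tg mice below both WT mice in the empty droplets, where 41.6% of all genes did, and 1, Mmp3, had both above, where 27.4% did, while 25.6% of all genes passed the test. Both calls were lost without Tg replicate 1 or 2, with an adjusted p of 0.232 or 0.105 for Ccl2 and 0.245 or 0.125 for Il6. DESeq2 called none of the 9 there and 3680 genes in all. Of the 9, edgeR gave 3 an unadjusted p under 0.05, against 6435 of 15180 genes.

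In nuclei, 20 pairs of a member and a class were tested between genotypes, in 6 classes, 7 with an unadjusted p under 0.05, and 2 passed. Of the 2, Ccl2 in ciliated nuclei reached the filter on low counts through its WT mice only. In these classes 3.59 to 11.1% of all genes passed. Genes with an unadjusted p under 0.05 ranged from 3063 of 14725 in ciliated nuclei to 4770 of 14429 in alveolar type 2 nuclei (edgeR). Il1a in alveolar macrophages was lower in Tg, a fitted change of -1.25 ± 0.27 on the log2 scale (edgeR, adjusted p = 0.0265), at the levels given above. In that class 8.12% of all genes passed. DESeq2 gave an adjusted p of 0.0501 for the same gene, and the call was lost without either Tg mouse. Il1b in macrophages had a log2 fold change of -2.34 ± 0.61 and an adjusted p of 0.05 that did not go below the threshold with edgeR, and 0.00793 with DESeq2. Without WT replicate 1, in which it was highest, its log2 fold change was -1.46 (adjusted p = 0.0392), and without Tg replicate 1 or 2 it was -1.86 or -3.14 (adjusted p = 0.399 or 0.0747). Cxcl2 and Tnf were tested in macrophages as well and did not pass, with log2 fold changes of -1.07 ± 0.54 and 1.18 ± 0.56 (adjusted p = 0.245 and 0.221). Over the alternative settings these ran from -1.42 to -0.348 for Cxcl2 and from 0.694 to 2.16 for Tnf. Both Tg mice were below both WT mice for 5 of the 9 members in macrophages, against 27.3% of all genes, and above them for Tnf and, on 0, 0, 2 and 2 UMIs, Mmp3, against 32.8%. These shares cover genes that passed the filter on low counts, which Mmp3 and, among the 5, Ccl2 and Cxcl1 did not.

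The genotype difference of Il1a in macrophages stood beside one in the same direction in their free RNA. Taken against the empty droplets of the same mice, the genotype difference of Il1a in macrophages was -0.34 ± 0.37 on the log2 scale (adjusted p = 0.64), and that of Il1b -1.59 ± 0.60 (adjusted p = 0.11). Of the 43 pairs tested in this way none passed in edgeR, where 9.91% of all tests of a gene in a class did, and 4 had an unadjusted p under 0.05. Genes with such a p ranged from 1164 of 11069 in monocytes or interstitial macrophages to 4298 of 14707 in alveolar type 1 nuclei. No other tool was run on this comparison. Pparg, a transcription factor that defines alveolar macrophages, was at 1295 and 1943 CPM in the macrophages of WT and 1922 and 2384 in those of Tg, so its order was not that of Il1a. Chil3, another marker of the class, did have the order of Il1a, at 9260 and 7296 CPM in WT and 3065 and 5438 in Tg. The list of 11 macrophage markers summed to 13590 and 13040 in WT and 9271 and 12160 in Tg, with 7 higher and 1 lower in both Tg mice, and club cell markers to 6407 and 5024 against 37380 and 12680. The part of these in the Il1a level was not tested.

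In ECs Il1a and Il1b were the members with enough UMIs for the test of levels between genotypes, and neither passed. Il1a was at 6.05 and 9.14 CPM in WT and 2.81 and 5.07 in Tg, from 13, 21, 11 and 30 UMIs (log2 -0.93 ± 0.46, adjusted p = 0.236). Il1b was at 6.05 and 11.8 in WT and 1.02 and 4.39 in Tg, from 13, 27, 4 and 26 UMIs (log2 -1.64 ± 0.64, adjusted p = 0.154). DESeq2 called neither of them, and 979 genes in all. Il1b passed in 3 of the 11 alternatives that gave a value. Among them were edgeR without a filter on low counts (adjusted p = 0.0106) and with the replicate block (0.0306). Over the alternatives that gave a value, leaving out a mouse among them, the log2 fold change of Il1b ran from -3.045 to -1.05. In ECs 6.94% of all 13725 genes passed the test between genotypes. The other 7 members had between 0 and 17 UMIs in a mouse's EC nuclei. Ccl2 had 6 and 10 in WT and 3 and 2 in Tg, in spite of the larger number of nuclei there, which is 2.79 and 4.35 CPM against 0.765 and 0.338. Tnf was at 1.86 and 2.61 CPM in WT and 3.32 and 2.87 in Tg, from 4, 6, 13 and 17 UMIs, and the genotypes of Mmp3 overlapped, at 0.465 and 1.31 against 3.06 and 0.844 CPM. Both Tg mice were below both WT mice for 4 of the 9 members, against 26.7% of all genes, and above them for 2, Tnf and Cxcl2 (0.93 and 1.31 against 1.53 and 2.03 CPM), against 33.6%. These shares cover genes that passed the filter of the test between genotypes, and of the members only Il1a and Il1b did. Taken against the empty droplets of the same mice, 6 members could be compared between genotypes in ECs and none passed in edgeR, with 1 at an unadjusted p under 0.05 (Il1b), where 16.2% of all genes passed. The log2 differences were -0.24 ± 0.50 for Il1a, -1.18 ± 0.52 for Il1b (adjusted p = 0.817 and 0.114), 0.75 ± 0.67 for Tnf and -0.95 ± 0.87 for Ccl2 (0.51 and 0.525), and 1.06 ± 0.86 for Cxcl2 and -1.40 ± 0.76 for Igfbp3 (0.461 and 0.225).

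Outside ECs and macrophages, Ccl2 in ciliated nuclei was the other pair that passed, at 4.30 and 2.81 CPM in WT and 0.358 and 0.173 in Tg, from 12, 7, 2 and 1 UMIs (log2 -3.66 ± 0.71, edgeR, adjusted p = 0.0442), where 3.59% of all genes passed. Only the WT mice reached the filter on low counts, so Ccl2 was tested there because it was high in WT. A lower level in Tg was thereby favoured in advance, and the call is a description only. Ccl2 lay at 0.0842 to 0.597 times the free RNA in all 4 mice, and the free RNA differed between genotypes in the same direction. Taken against the empty droplets the difference was -1.96 ± 0.86 (adjusted p = 0.147). DESeq2 gave it no adjusted p. In alveolar type 2 nuclei 7 members were tested and none passed, where 11.1% of all genes did. Of the 7, 3 had an unadjusted p under 0.05 with edgeR, against 4770 of 14429 genes. These were Tnf, Ccl2 and Cxcl1, which reached the filter on low counts in their WT mice only. They were tested because they were high in WT, so this count and their folds are descriptions only. DESeq2 called none of the 7 and 1476 genes in all. Ccl2 and Cxcl1 had log2 fold changes of -2.18 ± 0.60 and -1.78 ± 0.55 there (edgeR, adjusted p = 0.0571 and 0.0732). None of the 3 members tested in alveolar type 1 nuclei passed, where 9.02% of all genes did, nor did Tnf in T cells, where 5.95% did. An unadjusted p under 0.05 was found for 0 of them, against 4611 of 14778 genes in type 1 nuclei and 2490 of 10680 in T cells (edgeR). DESeq2 called none of them, and 1444 and 405 genes in all.

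**Figure D5:**
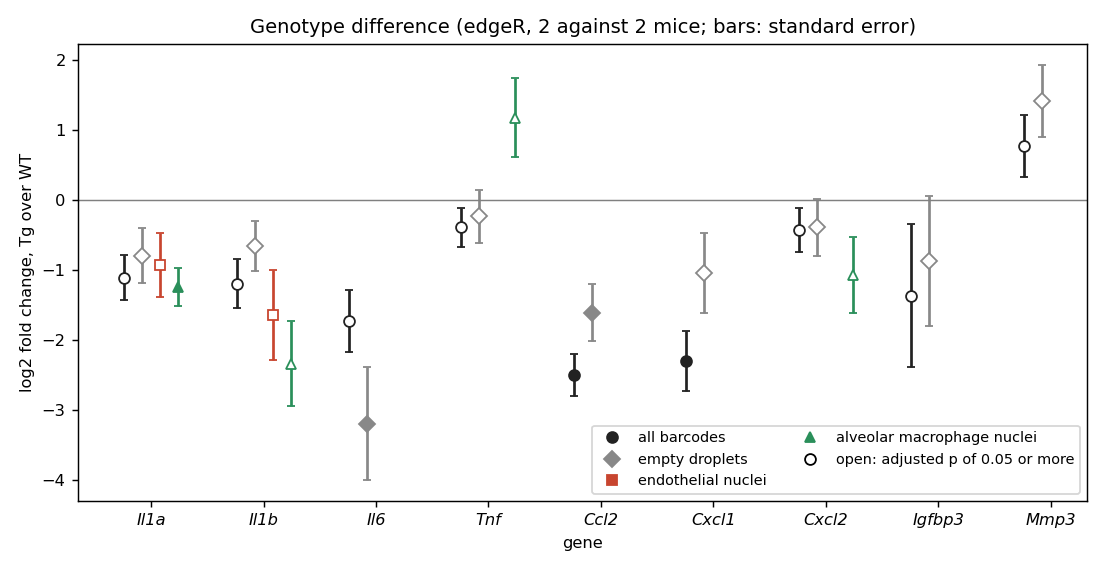
Log2 fold change, Tg over WT, of each member in all barcodes, empty droplets, EC nuclei and alveolar macrophage nuclei, with standard errors from edgeR, open symbols for an adjusted p of 0.05 or more and no symbol where a member was not tested. Ccl2 (-2.50) and Cxcl1 (-2.30) are filled in all barcodes, and Tnf in macrophages (1.18) and Mmp3 (0.77 in all barcodes) lie above 0.

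Of 57 further genes of the same pathways, listed by role, 55 were tested in all barcodes, where 2 were higher and 4 lower in Tg. Of all genes there, 2038 of 21795 passed, 1817 higher and 221 lower. In ECs 47 of the list were tested, with 3 higher and 0 lower (edgeR), a share near the 6.94% of all genes that passed there, 859 higher and 93 lower. Ccl7, a neighbour of Ccl2 in the same family of monocyte chemokines, fell with it, from 3.28 and 2.92 CPM in WT to 0.568 and 0.489 in Tg (log2 -2.58 ± 0.34, adjusted p = 0.0213). Cxcl5, another ligand of Cxcr2, was at 9.56 and 4.87 against 1.36 and 2.13 (-2.09 ± 0.44, adjusted p = 0.0418). Cxcl10, a ligand of Cxcr3 induced by interferon, was at 7.82 and 9.51 against 2.88 and 3.97 (-1.37 ± 0.27, adjusted p = 0.0384), and Plau, which encodes urokinase, at 7.98 and 5.59 against 1.67 and 2.31 (-1.80 ± 0.33, adjusted p = 0.0336). Ccl5, a T cell chemokine, and Tnfrsf1a, the receptor of tumour necrosis factor that most cells carry, went the other way. Ccl5 rose from 3.01 and 6.77 to 19.5 and 18.2 (1.93 ± 0.39, adjusted p = 0.0399), and Tnfrsf1a from 17.1 and 22.6 to 52.3 and 42.6 (1.24 ± 0.22, adjusted p = 0.0332).

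In EC nuclei Tnfrsf1a was at 10.7 and 14.8 CPM in WT and at 45.6 and 39.3 in Tg (log2 1.72 ± 0.26, adjusted p = 0.0173), and Ccl5 at 2.33 and 5.22 against 12.5 and 16 (1.89 ± 0.43, adjusted p = 0.0464). Igfbp5, a binding protein of the same family as Igfbp3, was at 285 and 448 in WT and 734 and 929 in Tg (1.17 ± 0.25, adjusted p = 0.0389). The empty droplets differed in the same direction, with Tnfrsf1a at 20.9 and 24.9 in WT and 85.3 and 70.3 in Tg, Ccl5 at 3.96 and 7.98 against 35.5 and 29.2, and Igfbp5 at 781 and 1116 against 1812 and 2341, and the part of the free RNA in the EC values was not tested. The median log2 fold change of the listed genes was -0.37 in all barcodes and -0.14 in ECs, against 0.01 and 0.02 over all genes tested.

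Over the 13 classes, the genes whose mean level was most like that of Il1a were Creg2 (Pearson r = 0.93), A930007I19Rik and Pcyox1 (both 0.9). For Il1b they were Ubap1 (0.95), Tgfbr1 (0.93) and Gm14221 (0.92), for Tnf Wdr89 (0.93), Evi2a (0.91) and Itpripl1 (0.9), and for Igfbp3 Ercc5 (0.91), Prelp (0.89) and Col1a2 (0.87). For Ccl2 they were Cacna1d (0.89), Colq (0.87) and Eral1 (0.83), for Cxcl1 Cutc (0.87), Ccdc22 (0.81) and Xpo5 (0.8), for Cxcl2 Gm15764, Afg3l2 and Gm34589 (0.89 each), and for Mmp3 Gba2 (0.84), 5730455P16Rik (0.83) and Gabpa (0.82). All values share the libraries and their free RNA, and those of the members rest on 124 to 676 UMIs, so the order is a description. Il6, with 44 UMIs, was left out.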

How the data were processed

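The deposited files hold UMI counts per gene and barcode for 4 mice, which the authors made with Cell Ranger 6.1.1 on mm10 with intronic reads included, per the labels and the study's methods; the filters, removal of free RNA and integration that followed in the study are not part of the counts. Barcodes of at least 1500 UMIs were placed in a class when the weighted excess of its marker list over the free RNA was at least 4 and led the next by 2, with at least 3 marker UMIs from 2 markers; barcodes with an excess of several lists were set aside as mixed (0.739 to 3.52%) in place of a doublet caller. UMIs were summed per mouse and class, for classes with at least 20 nuclei in every mouse, and for barcodes of 300 to 800 UMIs. Genes were filtered with filterByExpr of edgeR at a minimum count of 10 and tested with its quasi-likelihood test (edgeR 4.0.16, R 4.3.3) between genotypes, and against the empty droplets with the mouse as a block, with Benjamini-Hochberg adjustment over all genes tested and a threshold of 0.05. DESeq2 1.42.0, other scalings, filters, UMI limits and classes, and leaving out each mouse were alternatives. Shares were compared by exact permutation tests in R, with exact 95% binomial intervals from SciPy 1.17.1. Depth was 125261739 to 182014706 UMIs a library. On simulated data, genes changed by 2 on the log2 scale were recovered in 92.7% of cases in all barcodes, 94% in ECs and 90.7% in macrophages, and genes changed by 1 in 22.2, 38.1 and 29.5%, over 21727, 13669 and 12679 genes. The changed genes were drawn from all genes that passed the filter, with the same spread between mice set for each. These rates therefore do not describe members with few UMIs.

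All 9 members are reported. Of the pathway list, genes with an adjusted p under 0.05 in all barcodes or ECs are named, at most 8 by size, and for each member with at least 50 UMIs the 3 genes most like it over the classes, by Pearson correlation of log2(CPM + 1) among genes with at least 200 UMIs. The members and lists were chosen with earlier results of these data known. Gene positions are from GENCODE vM21 and promoters from RefSeq.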

Additional observations from a re-analysis of the deposited data

How the results depend on the processing

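Il1a in alveolar macrophages stayed above the empty droplets in 9 of 9 alternatives that gave a value (log2 1.78 to 2.15). The number of member and class pairs above them, 1, became 2 with nuclei of at least 3000 UMIs (Il1b in macrophages added), 3 with classes from the whole profile (Il1b in macrophages and Mmp3 in alveolar fibroblasts added), 0 with empty droplets of 100 to 250 UMIs, where no member could be tested, and 1 to 2 with a mouse left out (2 without Tg replicate 1, Il1b in macrophages added). The genes called between genotypes in all barcodes, 2038, became 4464 with DESeq2 and 3607 without a filter, and 0 to 5848 with a mouse left out. In empty droplets 3883 became 27 in those of 100 to 250 UMIs and 0 to 4802 with a mouse left out. In ECs 952 became 2663 without a filter and 0 to 2631 with a mouse left out, and in macrophages 1031 became 121 to 2535. The 0 counts came without a Tg mouse, where the lone Tg mouse is assumed to vary like the WT mice.

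Without Tg replicate 1 or 2, Ccl2 in all barcodes had an adjusted p of 0.237 or 0.0909 and Cxcl1 of 0.271 or 0.0884, with log2 fold changes of -1.88 to -2.89 over both genes. Il1a, Il1b and Il6 passed there with DESeq2, without a filter, with the replicate block and without either WT mouse. Il1a in macrophages missed the threshold with DESeq2 (0.0501), with classes from the whole profile (0.0629) and without Tg replicate 1 or 2, alternatives chosen after seeing the data. Its log2 fold change stayed between -1.48 and -1.08 over all alternatives. Igfbp3 turned from -1.37 to 1.48 in all barcodes and from -0.88 to 1.52 in empty droplets without WT replicate 2, against -2.27 and -1.74 without WT replicate 1, and Cxcl2 from -0.39 to 0.40 with barcodes of 1000 to under 1500 UMIs without a class as empty droplets, also chosen after seeing the data; the cause was not tested. Thinned to 1500 UMIs, the mean Il1a shares went from 2.91 to 1.35% in WT ECs, 1.34 to 0.365% in Tg ECs, 22.2 to 5.12% in WT macrophages and 6.92 to 2.72% in Tg macrophages.

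With the replicate block the genes called were 3993 in all barcodes and 1816 in ECs, Il1b in ECs passed (-1.78, adjusted p = 0.0306) and Il1b in macrophages passed (-2.24, adjusted p = 0.0473). Mice of the same number deviated together with r = 0.182 in all barcodes, 0.134 in ECs and -0.062 in macrophages, over 2 pairs. The labels give such mice nothing in common but the number, and this correlation cannot tell whether they shared a batch.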
